A study of Mus musculus with 13 samples.

Results

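*Rag1*, *Rag2* and *Dntt* are the genes of the lymphocyte-restricted enzymes of V(D)J recombination. They were chosen by this function and placed, by gene body and midpoint, on the domain calls of a satellite 4C (sat4C) experiment in mouse. These 3 genes are among 22329 protein-coding genes that could be placed out of 22380 annotated. RAG1 and RAG2 form the recombinase that recognizes and cuts the signal sequences next to the antigen receptor gene segments, with RAG1 holding the active site and RAG2 acting as its essential partner. Terminal deoxynucleotidyl transferase, the product of *Dntt*, adds nucleotides without a template to the cut ends before they are joined. In the thymus, developing T cells assemble their receptor genes with these enzymes, whereas embryonic stem cells, neural cells and astrocytes do not recombine such segments.

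Sat4C uses the major satellite repeats next to the centromeres as the viewpoint of a 4C experiment, so that a genomic fragment end with many reads marks DNA that was often close to a chromocenter, the nuclear body in which these repeats cluster. It was applied to whole thymus of adult male C57BL/6 mice (3 replicates with 6 sets of reads), to the embryonic stem cell (ESC) line IB10, which is 129/ola (3 replicates), to neural precursor cells (NPCs) derived from these ESCs (2 replicates), and to astrocytes (ACs) derived from these NPCs (2 replicates). The values analysed here are the calls the authors made from the reads, in which each of 399232 fragment ends is either in a pericentromere-associated domain (PAD) or in a non-PAD, with 1 consensus column per cell type. The thymus differed from the other samples in strain, in being a tissue rather than a culture, and in sequencing instrument. Each thymus replicate was sequenced on an Illumina GAII and on a HiSeq, whereas the other samples were sequenced on a HiSeq alone. These differences cannot be told apart from cell type. The cell types were not checked against markers because the calls hold no expression values.

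The consensus columns carry no values per replicate and no read counts. The depth behind a call is therefore unknown, the spread between replicates cannot be given, and nothing below was tested. Positions are in mm9, and fragment ends lay a median of 2887 bp apart. A domain is a run of ends with the same call, and its border lies in the middle between neighboring ends with different calls. A PAD call describes the cell population and not each cell in it.

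*Rag1* (ENSMUSG00000061311.6, minus strand, 11220 bp) and *Rag2* (ENSMUSG00000032864.3, plus strand, 7811 bp) lie tail to tail on Chromosome 2, at chr2:101478439-101489658 and chr2:101464875-101472685. Only 5753 bp separate their bodies. Both lie inside *B230118H07Rik*, a gene of 87.4 kb on the minus strand, and to its left 2895 kb hold no protein-coding gene. *Dntt* (ENSMUSG00000025014.6, plus strand, 30249 bp) lies on Chromosome 19 at chr19:41103765-41134013. The midpoints of *Rag1* and *Rag2* were 98.5 Mb from the first called fragment end of their chromosome, which is at its centromeric end, and the midpoint of *Dntt* was 38.0 Mb from that of Chromosome 19.

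A gene can be called only through the fragment ends in it or around it. The body of *Rag1* held 0 fragment ends, so that its calls were read from the ends on either side, 3.55 kb and 3.87 kb from the body. The same was true of 8370 protein-coding genes (37.5%). *Rag2* held 1 end, in its 3′ untranslated region, and *Dntt* held 3, all in introns. The body of *Rag1* contains 0 sites of MfeI (CAATTG), that of *Rag2* 1 and that of *Dntt* 3. NlaIII sites (CATG), of which those nearest to an MfeI site can give the other end of a fragment, number 67, 42 and 144. The sequences that stand for the *Rag* genes are 30 bases of the mm9 reference around each end from which their calls were read. They are on the plus strand, with the restriction site in capitals. The calls came from a model fitted along the chromosome, so they do not rest on the reads of these ends alone. The ends are given from left to right, with the left neighbor of *Rag2*, the end in its untranslated region, the end between the genes and the right neighbor of *Rag1*.
chr2:101440368-101440397 (MfeI): catggctgctcaCAATTGgccataactcca
chr2:101471941-101471970 (NlaIII, in *Rag2*): agaaagcatggcCATGagtgctggccaatt
chr2:101474878-101474907 (MfeI): ctaaagcccactCAATTGatggaaactcat
chr2:101493513-101493542 (NlaIII): tcaagggttcaaCATGgaaatctagcatcg

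All of these ends were non-PAD in ESCs, PAD in NPCs, non-PAD in ACs and PAD in the thymus. The left neighbor of *Rag2* lies 31.6 kb from the next end, so that most of *Rag2* and its start site fall in a stretch without ends. For *Dntt*, the ends shown are its left neighbor, its 3 intronic ends and its right neighbor.
chr19:41098963-41098992 (MfeI): gaaataacaaaaCAATTGacttttgtatag
chr19:41124317-41124346 (MfeI, in *Dntt*): tccccaataactCAATTGtgaaatcagatg
chr19:41132662-41132691 (NlaIII, in *Dntt*): gatccttagcacCATGtaaaagccaggagt
chr19:41132703-41132732 (MfeI, in *Dntt*): tggtaactctagCAATTGgcaaggccagga
chr19:41136049-41136078 (NlaIII): tccaaacatgggCATGggaatctaaaggtg

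These ends of *Dntt* were PAD in ESCs, NPCs and ACs and non-PAD in the thymus. The whole body of each of the 3 genes carried the same call as its midpoint in every cell type, with 100% or 0% of it in PADs.

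The recombinase genes and *Dntt* thus had opposite calls in every cell type but NPCs. In ESCs, *Dntt* was in a PAD and *Rag1* and *Rag2* were not, where 46.5% of all protein-coding genes were in PADs. In NPCs, all 3 genes were in PADs, against 68.5% of all genes. In ACs, *Dntt* was in a PAD and both *Rag* genes were not, against 34.9% of all genes. In the thymus, *Rag1* and *Rag2* were in a PAD and *Dntt* was not, against 26.1% of all genes. The tissue in which these genes are used is thus the one in which *Dntt* alone of the 3 was away from chromocenters by its call.

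From ESCs to thymus, *Rag1* and *Rag2* went from non-PAD to PAD, a class of 6.06% of all protein-coding genes. *Dntt* went the opposite way, from PAD to non-PAD, with 26.5% of all genes. The 4 calls of the *Rag* genes together, PAD in NPCs and thymus alone, were shared by 0.949% of genes (212), and the calls of *Dntt*, PAD in all but the thymus, by 11.1% (2476). *Rag1* and *Rag2* occupy 1 locus and the same domains, so they count as 1 observation. NPCs and thymus, the cell types in which the *Rag* genes were in PADs, were also the pair whose calls matched at the fewest fragment ends, 53.3% of all ends and 61.6% of those on Chromosome 2. The other pairs matched at 66.4% to 77.5% of all ends.

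**Figure D1:**
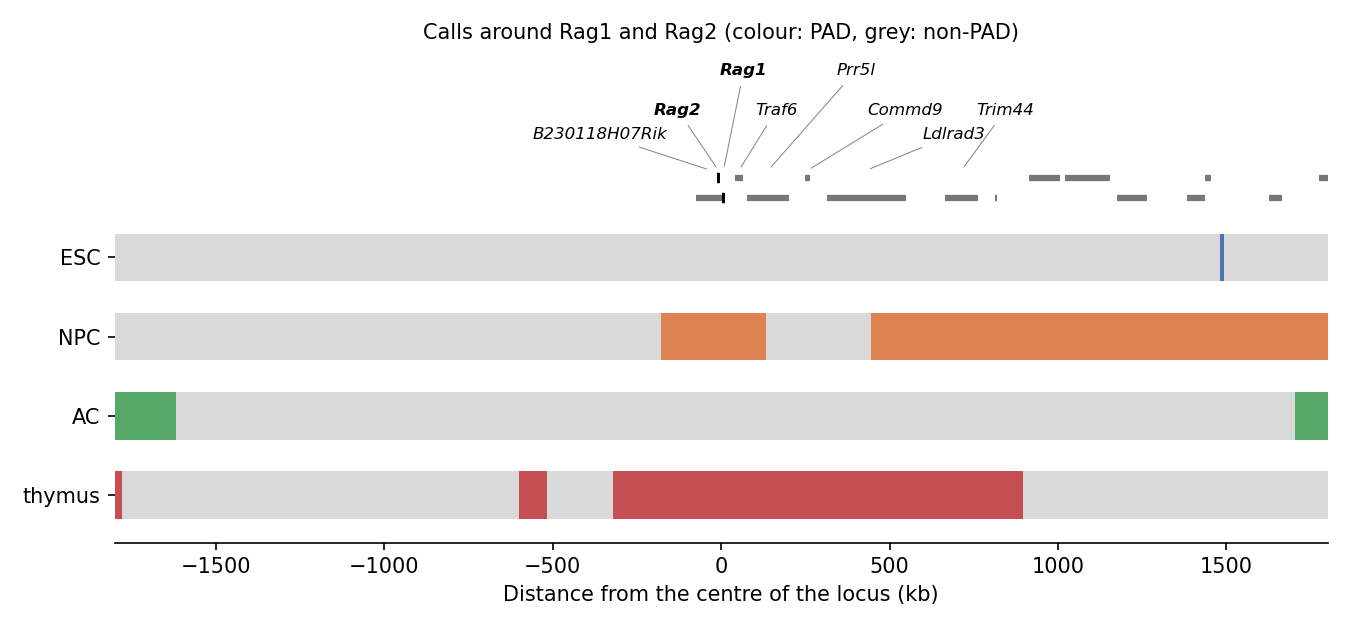
Calls around *Rag1* and *Rag2* on Chromosome 2, one row per cell type, with PADs in color and non-PADs in gray against the distance in kb from the middle of the locus. Blocks at the top are protein-coding genes (upper row plus strand, lower row minus strand, the *Rag* genes in black). The NPC PAD of 313 kb sits inside the thymus PAD of 1218 kb, while the ESC and AC rows are gray across both.

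In ESCs, the *Rag* locus lay in a non-PAD of 4119 kb (98835816 to 102954973, 627 ends), the 47th largest of 1356, where the median was 465 kb. It contained 14 protein-coding genes, from *B230118H07Rik* to *Apip*, a gene of methionine salvage. The nearest border was on the right, 1471 kb from the midpoint of *Rag1* and 1486 kb from that of *Rag2*, and 83.6% and 83.9% of the genes in ESC non-PADs were nearer to one. The PAD beyond this border consisted of 1 fragment end (1.29 kb). The size of this non-PAD depends on a stretch of 246 kb without fragment ends to the left of the locus, and was 2330 kb when such gaps ended a domain. The distances above were taken with this stretch inside the domain. With the gap as an edge, the nearest edge would be on the left and closer to both genes.

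In NPCs, *Rag1* and *Rag2* lay in a small PAD of 313 kb (101298126 to 101611454, 43 ends). It ranked 848th in size of 1125 PADs with a median of 833 kb, and only 1.72% of the genes in NPC PADs lay in a smaller one. It contained 4 protein-coding genes, which were *B230118H07Rik*, *Rag2*, *Rag1* and *Traf6*, the gene of a ubiquitin ligase in cytokine and Toll-like receptor signaling. The right border was 127 kb from the midpoint of *Rag1* and 143 kb from that of *Rag2*. Of the genes in NPC PADs, 12.01% and 13.5% were nearer to a border. Non-PADs of 2159 kb on the left and 310 kb on the right enclosed it.

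In ACs, the locus was again in a large non-PAD (99858790 to 103181898, 3323 kb, 498 ends), the 99th of 1034 in size. This non-PAD held 15 genes, from *B230118H07Rik* to *Ehf*, which encodes an epithelial ETS factor. The *Rag* genes lay close to its middle, with the nearest border on the left, 1625 kb from *Rag1* and 1610 kb from *Rag2*. It also spans the stretch of 246 kb without fragment ends to the left of the locus, and measured 2556 kb when such gaps ended a domain. The place of the genes within it thus depends on that stretch. Of the genes in AC non-PADs, 74.8% and 74.4% were nearer to a border.

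In the thymus, the PAD of the *Rag* locus measured 1218 kb (101156230 to 102374274, 180 ends) and ranked 287th of 845, with a median of 638 kb. It held 9 protein-coding genes, from *B230118H07Rik* to *Fjx1*. The left border was the nearest, 328 kb from *Rag1* and 313 kb from *Rag2*, and 39.3% and 38.1% of the genes in thymus PADs were nearer to one. The non-PAD to its left was short (196 kb, 55 ends) and that to its right was long (2072 kb).

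The thymus PAD contained the whole NPC PAD and was 3.89 times as large. It reached 142 kb further to the left and 763 kb further to the right. Of its sequence, 62.9% was PAD in NPCs, since a second NPC PAD overlapped its right part, and 0% was PAD in ESCs or ACs. The stretch with the calls of the *Rag* locus therefore had the borders of the NPC PAD. It was the 53rd largest of 342 stretches with these calls, which had a median of 91.7 kb and covered 2.09% of the called genome (53.8 Mb), and 102 of which held a gene.

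The genes next to *Rag1* and *Rag2* followed them in part. Of the 5 protein-coding genes on each side, all 10 were in PADs in the thymus, 6 were in NPCs, 3 were in ESCs and 3 were in ACs, against 26.1%, 68.5%, 46.5% and 34.9% of all protein-coding genes. Neighbors share domains, so these counts are not of independent genes. *B230118H07Rik*, *Traf6* (28.9 kb from the *Rag* genes) and *Trim44* (651 kb) had the same 4 calls. *Trim44*, of the tripartite motif family, lay in another NPC PAD. Between *Traf6* and *Trim44*, the mTORC2-associated gene *Prr5l*, *Commd9* and *Ldlrad3* were PAD in the thymus alone by their midpoints. The NPC border ran through *Prr5l*, 5.34 kb from its midpoint and with 45.7% of its body in the PAD. *Ldlrad3* also crossed an NPC border, with 44.7% of its body in a PAD.

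On the left, beyond the stretch without genes, the next protein-coding genes were *Gm10800* and *Gm10801*, 2957 kb and 2961 kb away. These and *Lrrc4c*, which encodes a synaptic netrin-G ligand and lies 3993 kb away, were in PADs in all 4 cell types. The next gene, the apoptosis inhibitor gene *Api5*, lies 7187 kb away and was PAD in the thymus alone. From ESCs to thymus, 7 of the 10 neighbors went from non-PAD to PAD like the *Rag* genes (6.06% of all genes), and all of these but *Api5* were inside the thymus PAD of the locus.

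**Figure D2:**
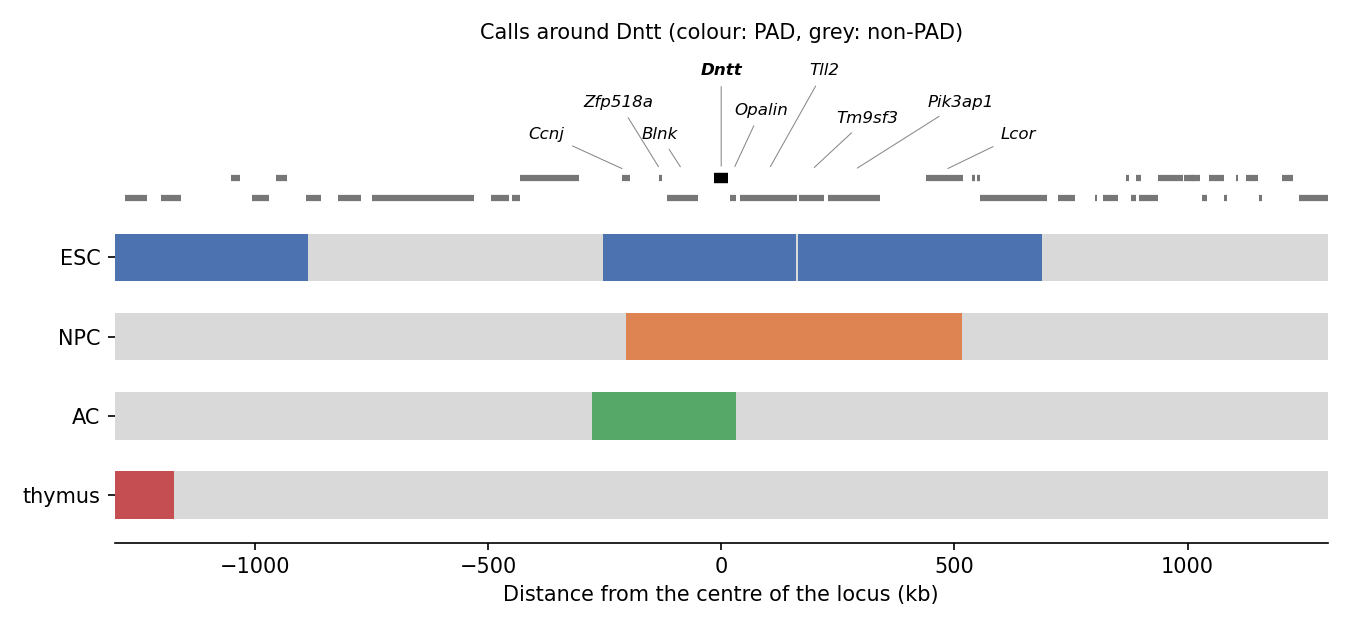
Calls around *Dntt* on Chromosome 19, drawn as for the *Rag* locus. The PADs of ESCs, NPCs and ACs share a left part, with left borders 23.4 to 72.1 kb apart, while the thymus row is gray for 1173 kb to the left of *Dntt* and throughout on the right.

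In ESCs, *Dntt* lay in a PAD of 412 kb (40865949 to 41278331, 65 ends), which ranked 734th of 1364 with a median of 476 kb. It held 6 genes, from the cyclin gene *Ccnj* to *Tll2*, which encodes a tolloid-like metalloprotease. The nearest border was on the right, 159 kb from the midpoint of *Dntt*, and 23.9% of the genes in ESC PADs were nearer to one. This border belongs to a non-PAD of 1 fragment end (5.21 kb), beyond which the calls were PAD again. With runs under 5 ends absorbed, the PAD measured 940 kb and the border of *Dntt* was on the left, 253 kb away.

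In NPCs, the PAD of *Dntt* measured 721 kb (40914657 to 41635449, 102 ends) and ranked 609th of 1125. It held 8 genes, from the zinc finger gene *Zfp518a* to the corepressor gene *Lcor*. *Dntt* was 204 kb from its left border, and 18.8% of the genes in NPC PADs were nearer to a border. Long non-PADs of 3827 kb and 4044 kb lay on its left and right.

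In ACs, *Dntt* lay at the edge of a PAD of 308 kb (40842569 to 41150539, 50 ends), which ranked 649th of 1042 and held 5 genes, from *Ccnj* to *Opalin*. The right border was 31.65 kb from the midpoint of *Dntt* and 16.5 kb from its body. Only 5.53% of the genes in AC PADs were nearer to a border, and their median distance was 466 kb. This border fell in a gap of 28.8 kb between ends, so the spacing of ends alone leaves its position open by 14.4 kb on either side. How far it varies between replicates is unknown. With the border at the last PAD end the distance was 17.3 kb.

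In the thymus, *Dntt* was part of a non-PAD of 8596 kb (39945498 to 48541602, 1126 ends), the 28th largest of 838. It held 134 genes, from the cytochrome P450 gene *Cyp2c37* to *Ccdc147*. *Dntt* was 1173 kb from its left border, close to the median of 1192 kb over the genes in thymus non-PADs. Chromosome 19 had a low share of sequence in thymus PADs, 33.5% against 48.4% of all called sequence, and 18.2% of its genes were in them. In the other cell types this share was 52.7% (ESCs), 58.7% (NPCs) and 41.8% (ACs), against 52.5%, 68.0% and 50.5% of all called sequence. The share was thus also low in NPCs and ACs. For Chromosome 2, which holds the *Rag* locus, the shares were 54.7%, 75.8%, 53.3% and, in the thymus, 54.6%. Of the genes on Chromosome 2, 45.2%, 77.3%, 39.0% and 37.5% were in PADs in the same order. Over all genes these shares were 46.5%, 68.5%, 34.9% and 26.1%.

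The PADs of *Dntt* in ESCs, NPCs and ACs had left borders near each other and right borders far apart. The left borders of ESCs and ACs differed by 23.4 kb, those of ESCs and NPCs by 48.7 kb and those of NPCs and ACs by 72.1 kb. The right borders differed by 128 kb, 357 kb and 485 kb for the same pairs, with that of ACs nearest to *Dntt* and that of NPCs furthest. The right border of ESCs is, however, the one at the non-PAD of 1 fragment end. Beyond that end, the ESC calls were PAD again up to 687 kb from the midpoint of *Dntt*, past the NPC border at 517 kb. With runs under 5 ends absorbed, the right border of ESCs was therefore the furthest. The stretch that was PAD in these 3 cell types and non-PAD in the thymus measured 236 kb (40914657 to 41150539, 42 ends). It was the 306th largest of 844 such stretches, with a median of 144 kb, which covered 8.39% of the called genome. It contained *Zfp518a*, *Blnk*, *Dntt* and *Opalin*.

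Of the 10 protein-coding genes next to *Dntt*, 0 were in PADs in the thymus, 4 in ACs, 7 in NPCs and 8 in ESCs, against 26.1%, 34.9%, 68.5% and 46.5% of all protein-coding genes. *Zfp518a*, *Blnk* (34.7 kb from *Dntt*), which encodes an adapter of B cell receptor signaling, and *Opalin* (2.95 kb), a gene of oligodendrocytes, had the same 4 calls as *Dntt*. *Opalin* lay 6.26 kb from the AC border and had 92.7% of its body in the AC PAD. On the right of *Opalin*, *Tll2*, *Tm9sf3*, *Pik3ap1*, the gene of a further adapter of B cells, and *Lcor* were PAD in ESCs and NPCs and non-PAD in ACs and thymus. On the left, *Ccnj* was PAD in ESCs and ACs, with its midpoint 0.242 kb outside the NPC PAD, and *Entpd1*, which encodes an ectonucleotidase, and *Tctn3* were non-PAD in every cell type. From ESCs to thymus, 8 of the 10 neighbors went from PAD to non-PAD like *Dntt*, a class of 26.5% of all genes. All 10 lay in the same thymus non-PAD as *Dntt*, so here too the counts are not of independent genes.

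**Figure D3:**
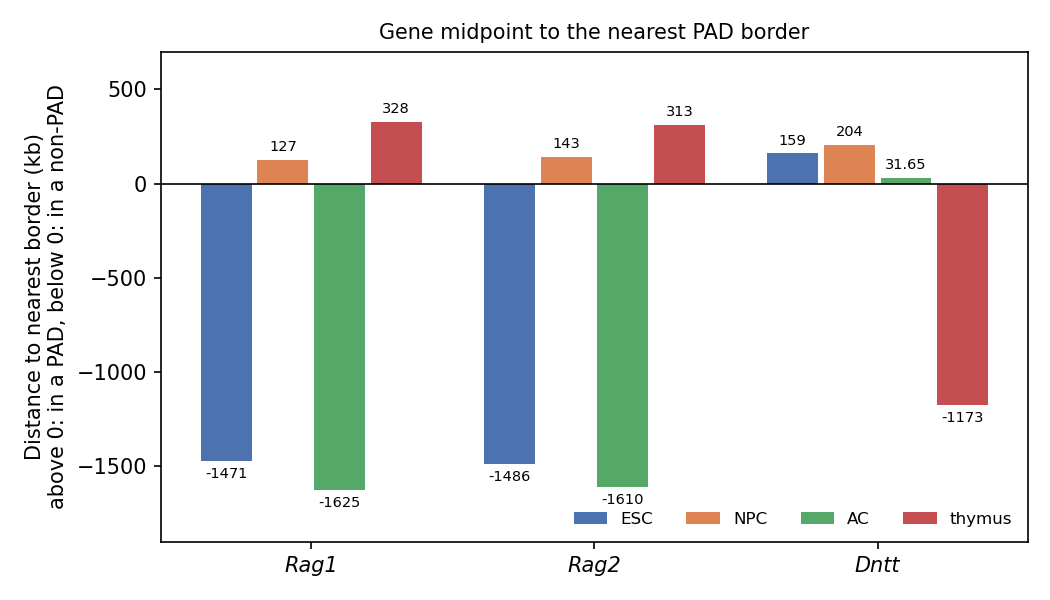
Distance in kb from the midpoint of *Rag1*, *Rag2* and *Dntt* to the nearest PAD border in each cell type, above 0 inside PADs and below 0 inside non-PADs. Bars are single values of the consensus calls without error, from 1625 kb outside a PAD (*Rag1* in ACs) to 328 kb inside one (*Rag1* in the thymus).

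Signed distances to the nearest border, positive inside PADs and negative inside non-PADs, placed the genes side by side. For *Rag1* they were -1471 kb for ESCs, 127 kb for NPCs, -1625 kb for ACs and 328 kb for the thymus. *Rag2* had -1486 kb, 143 kb, -1610 kb and 313 kb in the same order. For *Dntt* they were 159 kb, 204 kb, 31.65 kb and -1173 kb. *Rag1* and *Rag2* were further inside a PAD in the thymus than in NPCs, and *Dntt* was outside PADs in the thymus alone. The order of ESCs and ACs for the *Rag* genes, and of ESCs and NPCs for *Dntt*, turned when runs under 5 ends were absorbed. *Rag1* and *Rag2* were then -1798 kb and -1813 kb from a border in ESCs, further outside than in ACs, and *Dntt* was 253 kb inside in ESCs, deeper than in NPCs. The ESC and AC distances of the *Rag* genes were taken with the stretch without fragment ends on their left inside the domain. They were not computed with that gap as an edge. Whether neighbors in these orders differ beyond replicate error could not be examined. The medians over all placed genes were -40.8 kb for ESCs, 314 kb for NPCs, -275 kb for ACs and -635 kb for the thymus.

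**Figure D4:**
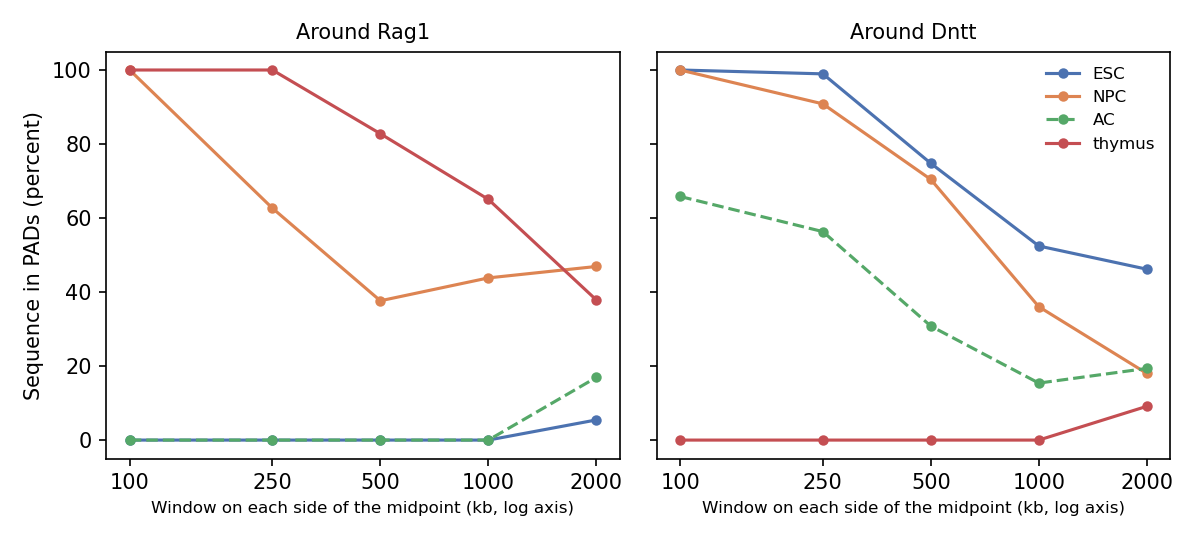
Percentage of sequence in PADs in windows centered on the midpoints of *Rag1* (left) and *Dntt* (right), against the window on each side in kb (log axis), one line per cell type. Within 100 kb the *Rag1* windows are all or none PAD, and the *Dntt* window of ACs (65.8%) is the mixed one.

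In windows of 500 kb on each side, PADs covered 0%, 37.6%, 0% and 82.8% of the sequence around *Rag1* in ESCs, NPCs, ACs and thymus. Around *Rag2* the values were 0%, 36.1%, 0% and 81.3%. The windows of the *Rag* genes were thus free of PADs in ESCs and ACs, and stayed so up to 1000 kb on each side. Around *Dntt*, PADs covered 74.8%, 70.4%, 30.8% and 0% of the same windows. The AC value was the lowest of those in which *Dntt* itself was PAD. Within 100 kb it was 65.8%, against 100% in ESCs and NPCs.

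The GC content within 500 kb on each side was 42.8% for *Rag1*, 42.7% for *Rag2* and 44.3% for *Dntt*, where the median over all genes was 44.1%. These windows held 7, 7 and 12 protein-coding genes, against a median of 16. Fragment ends numbered 161, 162 and 140, against a median of 134.

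**Figure D5:**
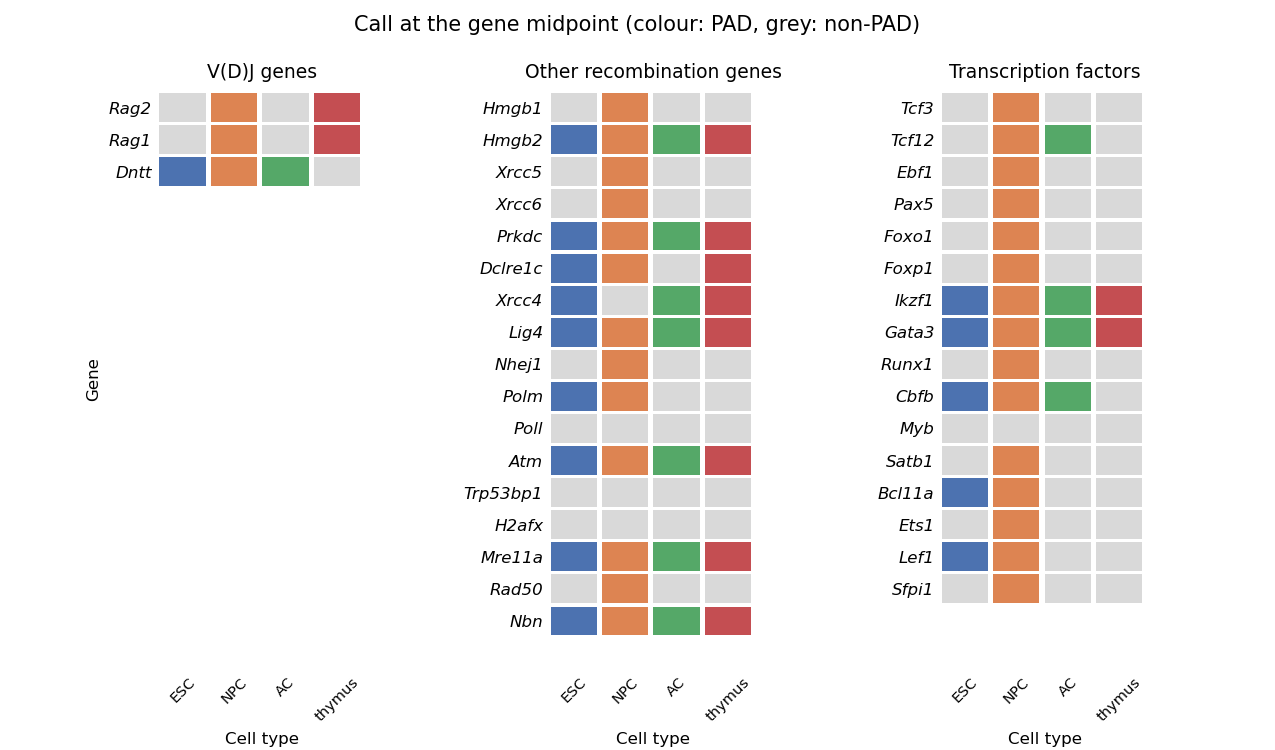
Calls at the midpoints of *Rag1*, *Rag2* and *Dntt* (left), of 17 other genes of V(D)J recombination (middle) and of 16 transcription factor genes (right), with a colored cell for PAD and a gray cell for non-PAD in each cell type. No gene in the middle or right panel shows the row of the *Rag* genes, and *Cbfb* shows that of *Dntt*.

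The other steps of V(D)J recombination use proteins that are present in most cells, and 17 of their genes were placed. In ESCs, 9 of the 17 were in PADs (52.9%, against 46.5% of all protein-coding genes). The number was 13 in NPCs (76.5%, against 68.5%), 7 in ACs (41.2%, against 34.9%) and 8 in the thymus (47.1%, against 26.1%). By their midpoints, 0 of the 17 had the calls of the *Rag* genes and 0 had those of *Dntt*, against 0.949% and 11.1% of all genes, so that few or none would be found at those shares. From ESCs to thymus, 0 of the 17 went from non-PAD to PAD (6.06% of all genes). By midpoint 1 went from PAD to non-PAD (26.5% of all genes), which was *Polm*, the gene of a polymerase related to terminal transferase that fills the ends. With placement by start site or any overlap *Xrcc5* did so too. *Poll*, the other such polymerase gene, was non-PAD in every cell type and lay in the same thymus non-PAD of 8596 kb as *Dntt*.

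Of the DNA bending cofactors of the recombinase, *Hmgb1* was PAD in NPCs alone and *Hmgb2* was PAD in all 4 cell types. Among the genes of end recognition and joining, *Xrcc5* and *Xrcc6*, which encode the Ku proteins, and *Nhej1* were PAD in NPCs alone. *Prkdc*, the DNA-dependent protein kinase, and *Lig4*, the ligase, were PAD in all 4. *Dclre1c*, which encodes the hairpin-opening nuclease Artemis, was PAD in all but ACs, and *Xrcc4*, the partner of the ligase, was PAD in all but NPCs. Of the genes of the break response, *Atm*, *Mre11a* and *Nbn* were PAD in all 4 cell types, *Rad50* was PAD in NPCs alone, and *Trp53bp1* and *H2afx* were non-PAD in all. The calls of *Xrcc5* and *Xrcc4* changed in at least 1 cell type when genes were placed by start site or by any overlap, and *Xrcc5* lay 0.31 kb from a border in an ESC non-PAD of 6.66 kb. The median signed distance of the 17 genes was 15.4 kb for ESCs, 1380 kb for NPCs, -58.1 kb for ACs and -328 kb for the thymus.

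Of 16 genes of transcription factors known to act on *Rag1*, *Rag2* or *Dntt*, 2 were in PADs in the thymus (12.5%), 4 in ACs (25.0%), 5 in ESCs (31.3%) and 15 in NPCs (93.8%), against 26.1%, 34.9%, 46.5% and 68.5% of all genes. The genes in thymus PADs were *Ikzf1* (Ikaros) and *Gata3*, a T lineage factor, both PAD in all 4 cell types. By midpoint, 0 of the 16 went from non-PAD in ESCs to PAD in the thymus (6.06% of all genes), and 3 went from PAD to non-PAD (26.5% of all genes), so that both counts were near the shares of all genes. These 3 were *Cbfb*, *Bcl11a* and *Lef1*, and *Cbfb*, the partner of the Runx factors, had all 4 calls of *Dntt* (11.1% of all genes). The B lineage genes *Ebf1* and *Pax5*, the E protein gene *Tcf3*, *Foxo1*, *Foxp1*, *Runx1*, *Satb1*, *Ets1* and *Sfpi1* were PAD in NPCs alone. *Tcf12* was PAD in NPCs and ACs, and *Myb* was non-PAD in all 4 cell types. At least 1 call of each of *Foxp1*, *Runx1* and *Myb* changed when any overlap counted as PAD, and of each of *Ebf1*, *Foxo1*, *Runx1* and *Satb1* when start sites were used. The count in NPC PADs, 15 by midpoint, was 12 by start site, where 68.5% of all genes were in them. By any overlap it was 16, against 70.0% of all genes. The median signed distance of the 16 genes was -198 kb for ESCs, 576 kb for NPCs, -171 kb for ACs and -598 kb for the thymus.

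Genes elsewhere with the same calls and the most similar distances to a border were ranked by the Euclidean distance over the 4 cell types, on sign times log10 of 1 plus kb. For *Rag1*, of 206 candidates further than 5 Mb away, the most alike were *Slc26a5* (0.332), which encodes the hair cell motor protein prestin, and *Lrrn1* (0.337), a gene of a neuronal leucine-rich repeat protein. *Psmc2*, *Dnajc2* and *Pmpcb*, which adjoin *Slc26a5* on Chromosome 5, came next, and the order was the same for *Rag2*. The distances of *Slc26a5* were 1342 kb and 1333 kb outside a PAD in ESCs and ACs, and 266 kb and 308 kb inside one in NPCs and thymus. For *Dntt*, of 2472 candidates, the most alike were *Nufip1* (0.235), *Bcar3* (0.311), *Zfp74* (0.313), *C230062I16Rik* (0.324) and *Epb4.1l5* (0.327). *Nufip1* was 168 kb, 272 kb and 33.0 kb inside PADs in ESCs, NPCs and ACs and 1850 kb outside in the thymus.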

How the data were processed

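The authors mapped sat4C reads to a reduced mm9 genome of fragment ends that leaves out Chromosome Y and put the read number of each end into a class. They fitted a hidden semi-Markov model of 2 states to each replicate with mhsmm in R and combined replicates by majority vote. Ties were settled by a virtual replicate made of the pooled reads. In NPCs and ACs, with 2 replicates each, any disagreement between replicates was such a tie. An aligner name is not given in the sources used. The deposited file holds the outcome as words, PAD or non-PAD, for 399232 ends on 20 chromosomes in 4 consensus columns, with 0 columns per replicate and 0 columns left unused. Its unit is a call and not a count, so depth and replicate spread could not be examined and 0 tests were run.

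Ends of equal call were joined into domains as described in the report. Genes of GENCODE vM1 were placed by midpoint (longest transcript), except 51 beyond the called sequence. Sequences were read from NCBIM37 (mm9). Scripts ran with pysam 0.24.0, scipy 1.17.1, matplotlib 3.10.9, pandas 2.3.3 and numpy 2.4.6 in Python 3.11.15. The procedures were tested on calls of 20 simulated chromosomes and missed 0 checks.

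The genes named are *Rag1*, *Rag2*, *Dntt*, their 5 nearest protein-coding neighbors per side, the first and last gene of each domain, both gene lists, and the 5 genes most alike. Members and lists were chosen with earlier results of these data known. Alternatives were placement by start site, whole gene record, any overlap or nearest end, borders at the last PAD end, runs under 5 ends absorbed, gaps over 100 kb ending a domain, counting in ends, windows of 100 to 2000 kb and autosomes only.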

Additional observations from a re-analysis of the deposited data

How the results depend on the processing

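The 48 calls of *Rag1*, *Rag2* and *Dntt* under other placements kept their values, but this is no check of the calls. Each gene body carried 1 call throughout, so start site and any overlap could not differ from the midpoint. Nearest end could not differ either, since borders lie midway between ends. *Rag1* and *Rag2* also share 1 locus. The 16 counts of the gene lists and the 18 shares of all genes stayed within 1.5 times of their values. Of 48 domain sizes 3 moved, and of 36 distances 2 moved. These totals overstate how stable the values are. They include sizes and distances counted in fragment ends, which cannot be set against kb by a ratio. *Rag1* and *Rag2* also lie in the same domains, whose sizes enter for each gene. Distances were not computed with gaps ending a domain. With gaps over 100 kb ending a domain, the ESC non-PAD of *Rag1* and *Rag2* measured 2330 kb. With runs under 5 ends absorbed, *Dntt* in ESCs was 253 kb from a border in a PAD of 940 kb, and with borders at the last PAD end it was 17.3 kb from one in ACs. The PAD shares within a window depend on its width by construction, and 33 of 60 moved. Around *Rag1* they were, for 100, 250, 1000 and 2000 kb, 100%, 62.7%, 43.8% and 46.9% in NPCs, and for 100, 250 and 2000 kb, 100%, 100% and 37.9% in the thymus. At 2000 kb they were 5.44% in ESCs and 16.9% in ACs. Around *Rag2* they were 100%, 62.7%, 43.1% and 46.5% in NPCs, 100%, 100% and 38.3% in the thymus, 5.06% in ESCs and 16.9% in ACs. Counted in ends, the thymus shares of *Rag1* and *Rag2* were 69.6% and 67.3%. Around *Dntt* the shares were 100%, 99.0%, 52.4% and 46.2% in ESCs, 100%, 90.8%, 36.0% and 18.0% in NPCs, and 65.8%, 56.3%, 15.4% and 19.4% in ACs, and at 2000 kb 9.12% in the thymus. No paired analysis was possible because the columns carry no replicates, and for the same reason no replicate could be left out. The depth behind each call is unknown.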
